A study of Mus musculus with 25 samples.

Results

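Interferon-stimulated genes were followed through bulk RNA sequencing of mouse lung after intranasal house dust mite (HDM) extract. The set held 39 genes of the 55421 in the count table, found by matching each gene's Ensembl identifier to its symbol. All 39 members passed the filter on low counts that left 19654 genes for testing. They were read as 26 genes best known as targets of type I interferon and 13 best known as targets of interferon gamma, although many respond to both.

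The 25 lungs came from female wild-type mice, of strain C57BL/6J in the sample labels and C57BL/6cmdb in the design text, with 5 mice in each of 5 groups. At 2 weeks, mice had received saline, 10 µg of HDM extract or 100 µg of HDM extract. At 12 weeks, they had received saline or 100 µg. HDM extract carries mite allergens together with microbial material and provokes allergic inflammation of the airways. One label calls the controls untreated, while the protocol gives them saline. The sources used here do not give the number and spacing of doses, the interval from the last dose to collection or any batch.

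Interferons are secreted proteins that put cells into an antiviral state. Type I interferons act on the receptor Ifnar1 and Ifnar2, and the kinases Jak1 and Tyk2 then activate a transcription factor complex that includes Stat2 and Irf9 and binds the interferon-stimulated response element (ISRE). Interferon gamma, made by T cells and natural killer cells, acts on Ifngr1 and Ifngr2, and many of its target genes carry the gamma-activated sequence (GAS). Type 2 allergic inflammation is driven by other cytokines, among them interleukin-4 and interleukin-13. A list of type 2 inflammation genes was therefore read beside the interferon targets.

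Promoter letters are shown for some members of each class, to show where letters of the response elements lie. The windows come from RefSeq on GRCm38.p6 and are printed 5′ to 3′ on the gene's own strand, as the 160 bases that end just before the annotated start. Capitals mark matches on either strand to GAAANNGAAA, the core of the ISRE, or to TTCNNNGAA, the core of the GAS. Isg15 encodes a ubiquitin-like modifier of proteins, Ifit1 and Ifit3 encode proteins that act against viral RNA, and Oas1a belongs to a family whose products activate RNase L. Gbp3, Gbp7 and Igtp encode GTPases that act on vacuoles holding pathogens, and Irf1 encodes a transcription factor.
Isg15, chr4:156200819-156200978, minus strand: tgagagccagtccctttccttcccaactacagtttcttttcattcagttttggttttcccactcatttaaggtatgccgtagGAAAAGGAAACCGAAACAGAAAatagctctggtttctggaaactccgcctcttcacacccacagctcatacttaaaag
Ifit1, chr19:34640729-34640888, plus strand: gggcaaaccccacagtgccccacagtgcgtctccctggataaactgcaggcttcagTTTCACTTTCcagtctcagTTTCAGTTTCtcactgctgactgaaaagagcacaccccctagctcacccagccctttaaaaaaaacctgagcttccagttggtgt
Ifit3, chr19:34583369-34583528, plus strand: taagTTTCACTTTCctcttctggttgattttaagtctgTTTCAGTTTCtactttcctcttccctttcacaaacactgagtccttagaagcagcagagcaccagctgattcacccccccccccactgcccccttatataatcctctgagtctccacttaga
Oas1a, chr5:120907526-120907685, minus strand: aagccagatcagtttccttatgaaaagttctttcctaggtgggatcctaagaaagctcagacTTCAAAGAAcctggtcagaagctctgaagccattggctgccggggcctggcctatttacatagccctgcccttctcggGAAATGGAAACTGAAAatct
Gbp3, chr3:142559884-142560043, plus strand: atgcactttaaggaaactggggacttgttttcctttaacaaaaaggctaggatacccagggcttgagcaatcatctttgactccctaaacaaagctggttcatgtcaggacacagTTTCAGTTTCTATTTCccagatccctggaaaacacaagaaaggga
Gbp7, chr3:142530176-142530335, plus strand: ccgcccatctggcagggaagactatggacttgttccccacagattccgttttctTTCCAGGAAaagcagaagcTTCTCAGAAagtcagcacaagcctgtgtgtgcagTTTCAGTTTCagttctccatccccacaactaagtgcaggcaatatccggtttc
Igtp, chr11:58199396-58199555, plus strand: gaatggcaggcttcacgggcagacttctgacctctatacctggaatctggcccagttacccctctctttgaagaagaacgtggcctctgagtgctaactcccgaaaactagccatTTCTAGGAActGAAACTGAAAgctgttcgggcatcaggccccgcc
Irf1, chr11:53769854-53770013, plus strand: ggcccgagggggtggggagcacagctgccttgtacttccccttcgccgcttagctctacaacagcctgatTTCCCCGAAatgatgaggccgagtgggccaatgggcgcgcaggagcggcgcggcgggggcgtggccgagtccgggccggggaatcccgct

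The Isg15 window holds 3 overlapping ISRE matches that begin 78, 72 and 66 bases before the start. Ifit1 has 2 separate matches, at 104 and 85 bases, and Ifit3 has 2, at 156 and 122 bases. Oas1a carries 2 overlapping ISRE matches close to its start, at 20 and 14 bases, and a GAS match at 98 bases. In Igtp a GAS match at 45 bases and an ISRE match at 34 bases lie side by side, and the Irf1 window has a GAS match at 90 bases and 0 ISRE matches. Over windows from 250 bases before to 50 after the start, 28 of the 39 members had a RefSeq entry. The ISRE letters were in 18 of the 28 genes (64.3%), made up of 10 of 18 type I genes and 8 of 10 gamma genes, against 3.99% of 27025 genes. The GAS letters were in 9 of the 28 (32.1%), made up of 4 of 18 type I genes and 5 of 10 gamma genes, against 9.55% of all genes. Each member printed holds a match, while Cxcl9 had 0 matches of either kind and Ifit2 had 0 ISRE matches over these windows. A match is a description of letters and not of binding.

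On GRCm38, several members lie in clusters of related genes. Ifit2, Ifit3 and Ifit1 lie on chromosome 19 between 34550694 and 34650009, and Gbp5, Gbp7, Gbp3 and Gbp2 on chromosome 3 between 142493978 and 142638008. Oas2, Oas3 and Oas1a lie on chromosome 5 between 120730333 and 120907521, and Cxcl9 and Cxcl10 on the same chromosome between 92321347 and 92348889. Where members of a family are alike in sequence, reads may have been shared between them. The annotated spans of Igtp and Irgm2 overlap on the same strand, and so does that of Gbp4 with its neighbours Gbp8 and Gbp9. The counting of reads in such overlaps is not given in the sources used here.

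Depth ran from 25.4 to 51.9 mega counts (M) across 24 libraries. It was 7.23 M in replicate 4 of the 2-week saline group, which also had the highest mitochondrial share, 9.80% against 1.99 to 7.16% elsewhere. Markers of alveolar type 2 cells, the surfactant-making cells of the lung, summed to 13489 to 20879 CPM (counts scaled to a common library size and composition) over all libraries. The libraries labelled saline at 12 weeks went against that label. Summed CPM of a list of type 2 inflammation genes ran from 2556 to 4748 in them, against 181 to 279 in 2-week saline and 2202 to 3518 after 100 µg at 12 weeks. At 2 weeks the sums ran from 159 to 346 CPM after 10 µg and from 139 to 368 CPM after 100 µg. In each of these HDM groups 0 of the 13 listed genes were called against saline, with 0.0407% and 8.13% of all genes called. Groups are called by their labels, and each direction drawn against the 12-week saline label rests on a label in doubt. Replicate 2 of 100 µg at 12 weeks stood apart from its group in type I members, and the 12-week member counts, class medians and type I scores are given with and without it. In bulk lung, fewer cells of a type and less RNA per cell cannot be told apart.

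The members were detected in every group, and their levels per length of exon spanned a wide range. The highest mean level over the 25 libraries was that of Gbp2, a guanylate-binding GTPase, at 43.0 CPM per kb. Ifit3 followed at 32.5, Bst2, a membrane protein that tethers budding virions, at 32.3, and Irf1 at 31.7 CPM per kb. The lowest were Oas3 at 0.760, the T-cell chemoattractant Cxcl10 at 0.848 and its relative Cxcl9 at 0.908 CPM per kb. Parp14, an ADP-ribosyltransferase, was the steadiest, with a highest library 1.42 times its lowest. Cxcl9 varied most, 15.4-fold between libraries, followed by Ifi27l2a at 7.02-fold, Isg15 at 6.51-fold and Irf7 at 6.13-fold.

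Interferon transcripts themselves were near the limit of detection. Of 20 interferon genes listed, Ifng alone passed the filter, with 28, 50, 32, 33 and 33 reads summed over the 5 libraries of 2-week saline, 10 µg, 100 µg, 12-week saline and 12-week 100 µg. The other 19, among them Ifnb1 and the interferon alpha genes, had 3 reads or fewer per group. Ifnb1 had 1 read in each of the 100 µg groups and 0 in the others.

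**Figure D1:**
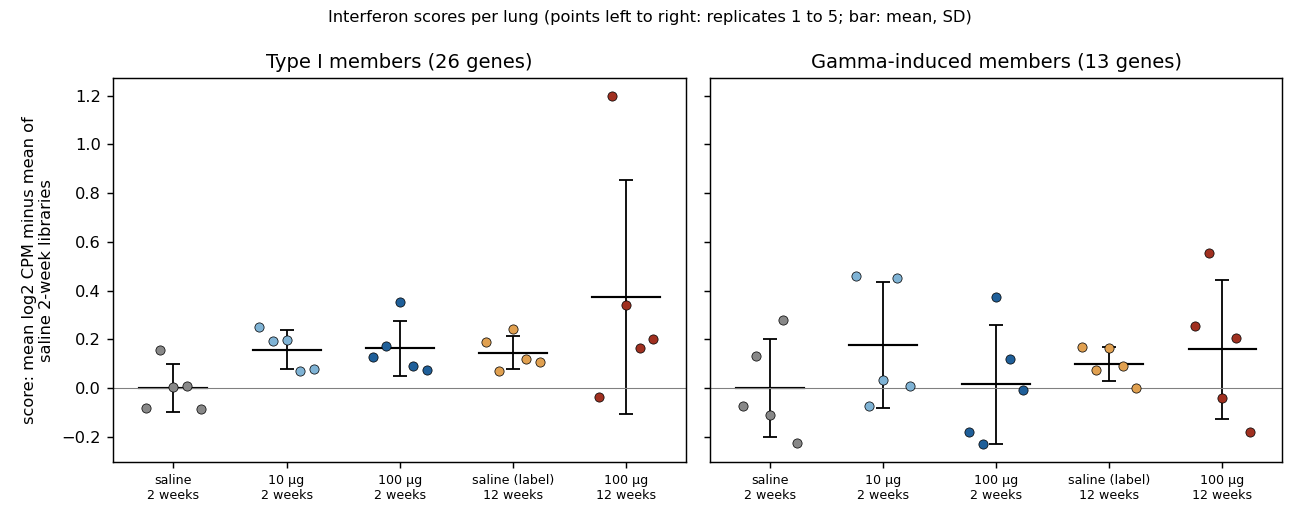
Type I and gamma scores of each library, as the mean log2 CPM over the class members minus the mean of the 2-week saline group. Points are mice, left to right replicates 1 to 5, with the group mean and SD. Replicate 2 of 100 µg at 12 weeks has the highest type I score, 1.199, and the other 24 libraries lie between -0.09 and 0.35.

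As a summary without a test, a type I score and a gamma score were taken per library, each the mean log2 CPM of the class minus its mean in 2-week saline. The type I score was 0.00 ± 0.10 (SD, n = 5) in 2-week saline, 0.16 ± 0.08 after 10 µg, 0.16 ± 0.11 after 100 µg at 2 weeks, 0.15 ± 0.07 in 12-week saline and 0.37 ± 0.48 after 100 µg at 12 weeks. The gamma score was 0.00 ± 0.20, 0.18 ± 0.26, 0.01 ± 0.24, 0.10 ± 0.07 and 0.16 ± 0.28 in the same order. The means after HDM or at 12 weeks were at most 0.18 above 2-week saline in all but 1 case, the 12-week 100 µg type I score, whose spread exceeds its mean. In that group replicates 1 to 5 scored -0.04, 1.199, 0.34, 0.17 and 0.20 for type I and 0.26, 0.55, -0.04, 0.21 and -0.18 for gamma. Over the 4 mice other than replicate 2, the type I score was 0.17 ± 0.16 (SD, n = 4) and the gamma score 0.06 ± 0.21.

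The 2 classes did not order the mice alike. After 10 µg, replicates 1 and 4 had the highest gamma scores, 0.46 and 0.45, against -0.07 to 0.03 in the other 3 mice. Replicate 4 of that group had the lowest type I score of the group, 0.07. After 100 µg at 2 weeks, replicate 3 was highest in both, 0.35 for type I and 0.37 for gamma. Its CPM was the group's highest in 16 of 26 type I and 11 of 13 gamma members, against 14.6% of all genes. The scores are built from these members, so the counts restate them.

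**Figure D2:**
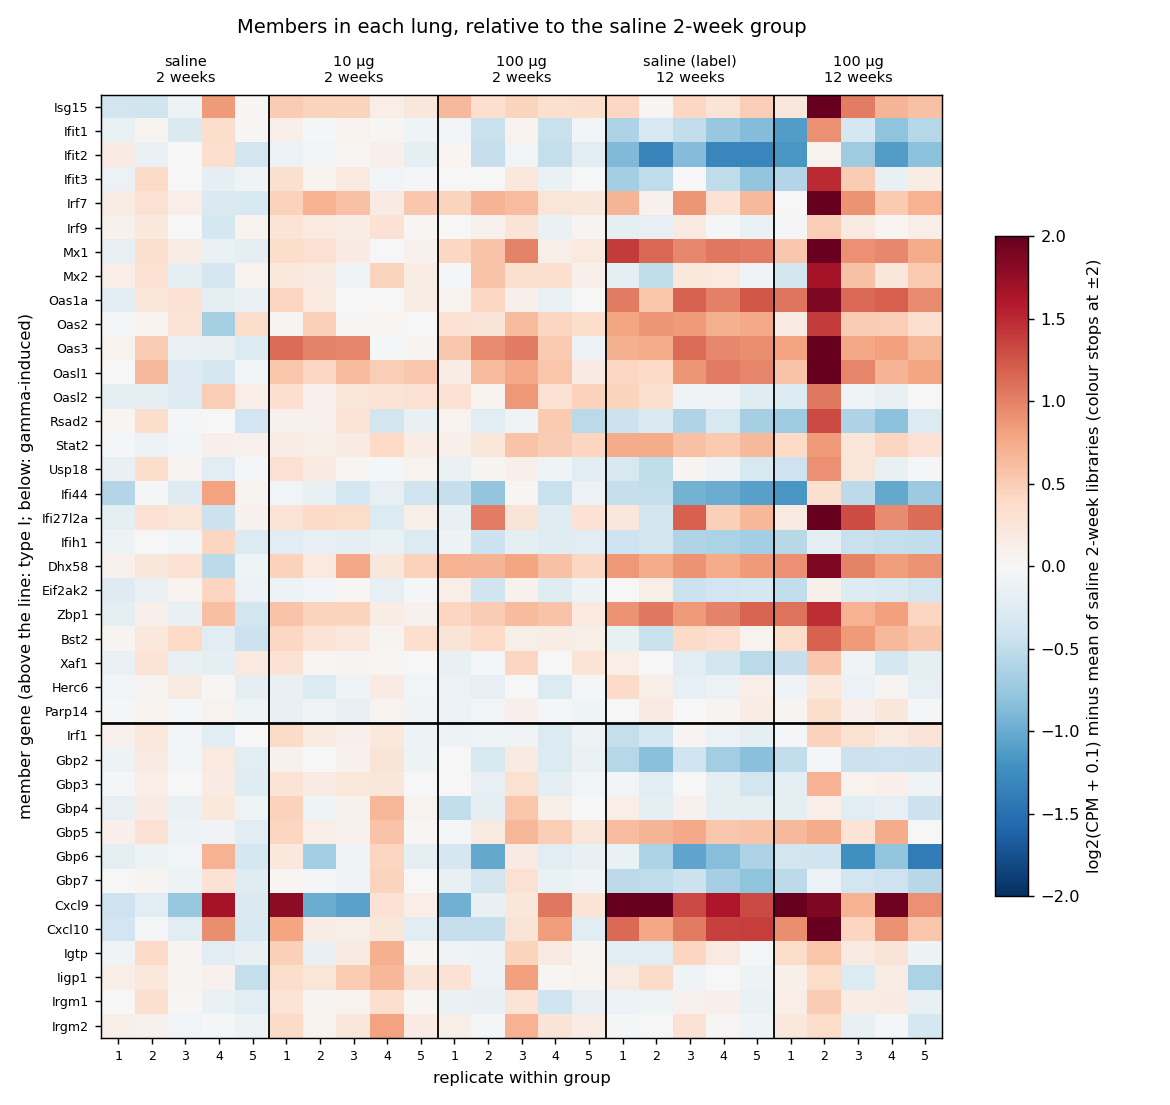
Levels of the 39 members (rows) in the 25 libraries (columns, grouped by label), as log2(CPM + 0.1) minus the mean of 2-week saline, with colours ending at 2 log2 units either way. The column of replicate 2 of 100 µg at 12 weeks is high across the type I rows, and the 12-week columns show members that are higher beside members that are lower.

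The first question was whether HDM changed the members within 2 weeks. After 10 µg, 0 of 39 members were called at an adjusted p under 0.05, against 0.0407% of all genes tested (0.0305% higher and 0.0102% lower). At an unadjusted p under 0.05 edgeR's test gave 6 members (15.4%) and 2457 genes (12.5%), and neither the DESeq2 test, which called 202 genes, nor limma-voom, which called 0, called a member. The median log2 fold change was 0.15 over the members and -0.01 over all genes. The largest change was that of Oas3, 0.67 (adjusted p = 0.36), whose libraries after 10 µg fell apart into 7.003, 6.42 and 6.33 CPM in replicates 1 to 3 and 3.09 and 3.30 CPM in replicates 4 and 5. Groups did not overlap for Stat2, part of the type I signalling complex, and Iigp1, an immunity-related GTPase, against 1.68% of all genes separated upwards and 1.65% downwards. Stat2 was 47.8 to 55.3 CPM in saline and 55.7 to 68.0 CPM after 10 µg, a log2 fold change of 0.20 (adjusted p = 0.424). Iigp1 was 76.1 to 123 CPM in saline and 126 to 168 CPM after 10 µg, a log2 change of 0.40 (SE 0.17, adjusted p = 0.363).

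After 100 µg for 2 weeks, Stat2 and Dhx58 rose, 2 of 39 members, against 4.12% of all genes called higher, and 0 fell, against 4.01%, with 8.13% of all genes called in either direction. Stat2 measured 50.04, 47.8, 49.8, 55.3 and 54.9 CPM in saline and 55.0, 60.6, 76.5, 72.9 and 69.6 CPM after 100 µg. The groups overlapped by a narrow margin, with replicate 1 of the treated mice inside the saline range, and the log2 fold change was 0.38 (SE 0.10, adjusted p = 0.0259). Dhx58, a cytoplasmic helicase that regulates sensing of viral RNA, measured 6.34, 7.05, 7.41, 4.15 and 5.62 CPM in saline and 9.80, 9.64, 10.5, 9.08 and 8.03 CPM after 100 µg. Every treated mouse was above every saline mouse, the log2 fold change was 0.58 (SE 0.17, adjusted p = 0.0380), and 3.37% of all genes were separated upwards in this way. Neither call was firm against the choice of mice. Stat2 lost it without saline replicate 1, 2 or 3 or treated replicate 3, 4 or 5, with an adjusted p of 0.0512 to 0.0709. Dhx58 lost it without saline replicate 1, 2, 4 or 5 or treated replicate 2, 3 or 4, with an adjusted p of 0.0509 to 0.0793.

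The effector genes most often used to read an interferon response showed no called change after 100 µg at 2 weeks. Ifit1 changed by -0.17, Ifit3 by -0.00, Rsad2, whose product makes a chain-terminating nucleotide, by -0.02 and Usp18, which removes Isg15 from proteins and dampens the type I receptor, by -0.08 on the log2 scale. Isg15 had a log2 fold change of 0.48 (adjusted p = 0.312), and its libraries ran from 2.04 to 5.03 CPM in saline and 3.44 to 4.35 CPM after 100 µg, so the treated range lay inside the saline range. The 5.03 CPM was replicate 4, the shallow library, with 23 reads, and the other 4 saline mice, at 2.04 to 2.78 CPM, lay below every treated mouse. Irf7, a transcription factor that amplifies type I interferon, had 0.42 (adjusted p = 0.375). Mx1, of the dynamin-like GTPase family, had 0.47 (adjusted p = 0.171), and Zbp1, a sensor of Z-form nucleic acid, 0.50 (adjusted p = 0.0728). Among gamma targets the log2 fold change was -0.14 for Irf1, -0.11 for Gbp2, 0.32 for Gbp5 (adjusted p = 0.18), 0.08 for Igtp, 0.30 for Cxcl9 and 0.16 for Cxcl10, none of them called. The median was 0.14 over type I members, 0.04 over gamma members and -0.00 over all genes.

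Other lists of the pathway were read in the same comparison, in which 4.12% of all genes were called higher. In it 0 of 10 interferon receptor and kinase genes and 0 of 6 feedback genes were called. Of 13 nucleic acid sensing genes, whose median log2 fold change was 0.33, 2 rose, Ticam1 by 0.33 (adjusted p = 0.0211) and Irf8 by 0.40 (adjusted p = 0.0300) on the log2 scale. Of 46 other interferon-stimulated genes, 3 rose, Lgals3bp by 0.76 (adjusted p = 0.00148), Pml by 0.53 (adjusted p = 0.00316) and Parp10 by 0.44 (adjusted p = 0.0465). Of 11 genes on a class I antigen presentation list, which also holds Ciita, the regulator of class II genes, 3 rose, the peptide transporter genes Tap2 by 0.47 (adjusted p = 0.00279) and Tap1 by 0.60 (adjusted p = 0.0169), and their regulator Nlrc5 by 0.42 (adjusted p = 0.0466). Summed markers of plasmacytoid dendritic cells, a source of type I interferon, ran from 41.8 to 65.3 CPM in saline and 69.7 to 100.1 CPM after 100 µg, with 2 of 7 called higher, and 0 of the 7 were at 0 in any library. Summed B cell markers ran from 156 to 284 CPM in saline and 179 to 361 CPM after 100 µg, with 2 of 6 called higher. Of type 1 helper markers 1 of 7 was called lower, and of type 2 alveolar markers 1 of 6. The part of these marker shifts in the member results was not tested. Of 13 circadian clock genes, 7 were higher and 4 lower (log2 fold change -1.54 to 2.47), against 8.13% of all genes called in either direction. After 10 µg 1 of the 13 was called, higher, against 0.0407% of all genes. For 100 µg against saline at 12 weeks 1 was called, higher, against 8.36%. The part of the clock differences in the member results was not tested.

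The doses were compared directly. Between 100 µg and 10 µg at 2 weeks, 0 of 39 members and 0% of all genes were called in edgeR's fit. At an unadjusted p under 0.05 there were 2 members and 1666 genes, and the DESeq2 test called 0 members and 1 gene. The members' log2 differences ran from -0.29 to 0.31, with a median of -0.06. Groups overlapped for all 39 members, against 1.1% of all genes separated upwards and 0.702% downwards.

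**Figure D3:**
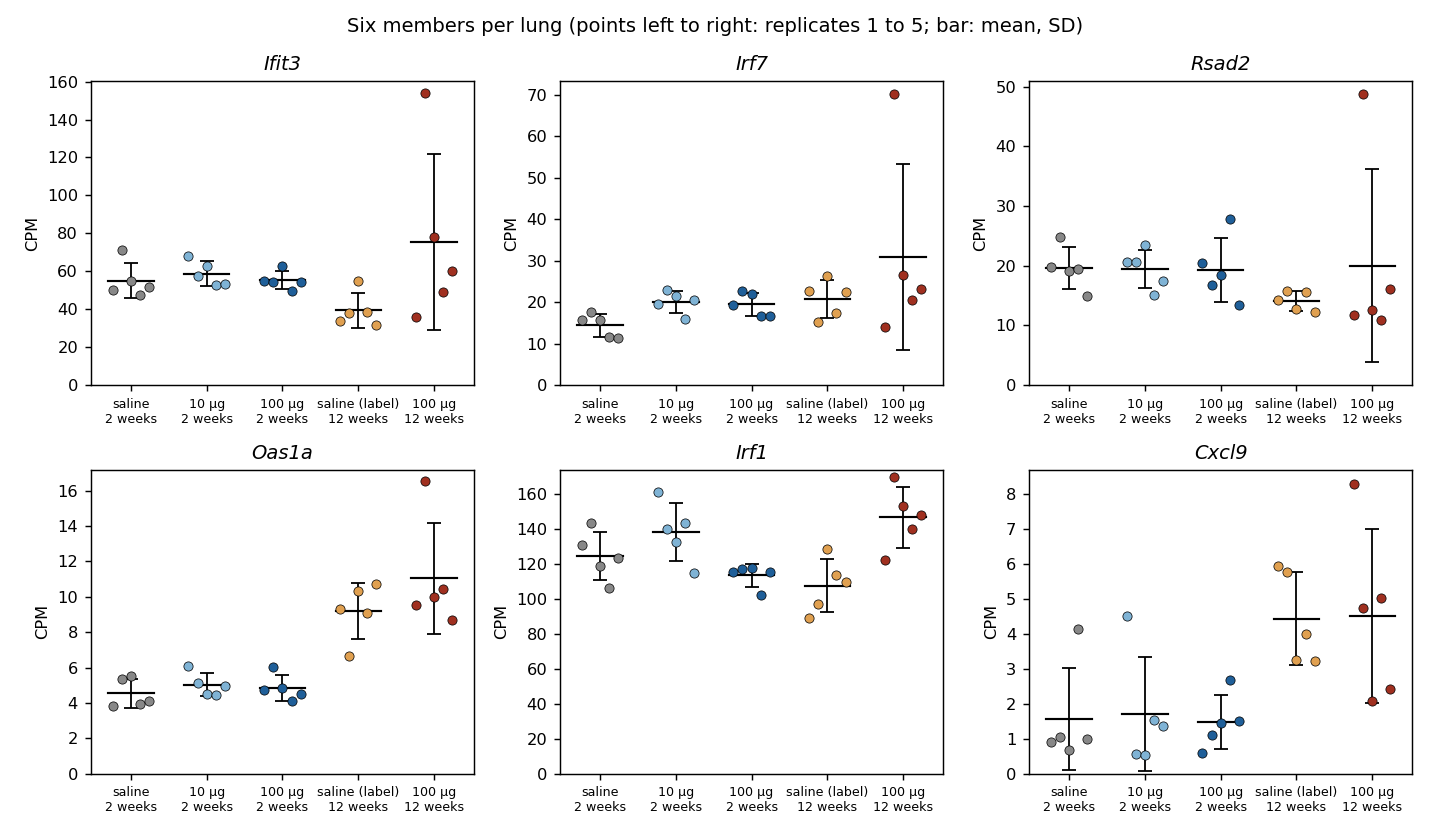
Levels (CPM) of Ifit3, Irf7, Rsad2, Oas1a, Irf1 and Cxcl9 in the 5 groups, each point a mouse, with the mean and SD. Oas1a and Cxcl9 sit higher in both 12-week groups, and replicate 2 of 100 µg at 12 weeks reaches 154 CPM for Ifit3, 70.2 CPM for Irf7 and 48.7 CPM for Rsad2.

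At 12 weeks, 100 µg was compared with the libraries labelled saline. Ifit3, Bst2 and Irf1 rose, 3 of 39 members, against 4.29% of all genes called higher, and 0 fell, against 4.08%, with 8.36% of all genes called in either direction. Groups overlapped for all 39 members, against 3.4% of all genes separated upwards and 1.79% downwards. Ifit3 measured 33.8, 38.2, 54.7, 38.5 and 31.5 CPM in saline and 36.1, 154, 77.9, 49.0 and 60.2 CPM after 100 µg, a log2 change of 0.94 (SE 0.24, adjusted p = 0.0279). Replicate 2 was by far the highest, and replicates 1 and 4 lay inside the saline range. Bst2 measured 21.5, 17.6, 31.2, 30.04 and 25.05 CPM in saline and 30.7, 54.5, 43.4, 37.4 and 34.8 CPM after 100 µg, a log2 change of 0.68 (SE 0.16, adjusted p = 0.0225). Only replicate 1 of the treated mice fell within the saline range. Irf1 measured 89.1, 97.0, 129, 114 and 109.8 CPM in saline and 122, 169.9, 153, 139.8 and 148 CPM after 100 µg, a log2 change of 0.45 (SE 0.10, adjusted p = 0.0210). Again replicate 1 was the treated mouse within the saline range.

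Each of these calls was lost without any 1 of several mice. Without replicate 2 of 100 µg, 0 of 39 members were called, and the count over all genes fell from 1644 to 31. The log2 fold changes were then 0.50 for Ifit3, 0.54 for Bst2 and 0.38 for Irf1. Ifit3 also lost its call without saline replicate 1, 2 or 5 or treated replicate 3 or 5, and Bst2 and Irf1 without saline replicate 1 or 2 or treated replicate 3 or 5. Over all the mice whose removal ended a call, the adjusted p was 0.0516 to 0.103 for Ifit3, 0.0620 to 0.0915 for Bst2 and 0.0623 to 0.0879 for Irf1. With these groups alone in the fit, 0 genes were called. The count was highest, 10 members, without replicate 1 of 100 µg, which added Isg15, Ifit2, Irf7, Mx2, Usp18, Ifi27l2a and Gbp3. It was 7 without saline replicate 3, and 5 without treated replicate 4 or without the shallow 2-week library, both of which added Isg15 and Mx2. Without that library and replicate 2 together, Irf1 was called higher and Oas2 lower, beside 286 genes higher and 192 lower over all genes. Leaving out 1 library at a time gave 0 to 3500 calls over all genes in this comparison, beside 0 to 10 members.

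The other 36 members did not pass the test at 12 weeks. Isg15 measured 3.66, 2.77, 3.68, 3.33 and 3.86 CPM in saline and 3.22, 13.3, 5.66, 4.41 and 4.16 CPM after 100 µg, a log2 fold change of 0.84 (adjusted p = 0.0516), which was 0.33 (adjusted p = 0.294) without replicate 2. Irf7 had a log2 fold change of 0.58 (adjusted p = 0.156), which was 0.01 (adjusted p = 0.971) without replicate 2. Mx2 had 0.76 (adjusted p = 0.0542), Ifi27l2a 0.84 (adjusted p = 0.0748), Rsad2 0.51 (adjusted p = 0.248), Usp18 0.43 (adjusted p = 0.101) and Ifit1 0.41 (adjusted p = 0.256). Without replicate 2 these were 0.34 for Mx2, 0.42 for Ifi27l2a, -0.15 for Rsad2, 0.16 for Usp18 and -0.09 for Ifit1. Mx1 at 0.00, Oas2 at -0.15 and Zbp1 at -0.05 were near 0, and were -0.34, -0.43 and -0.24 without it. Among gamma members the log2 fold change was 0.31 for Gbp2 (adjusted p = 0.0713), 0.22 for Igtp, 0.02 for Cxcl9, -0.07 for Cxcl10 and -0.13 for Gbp5. Without replicate 2 they were 0.21, 0.13, -0.02, -0.46 and -0.20 in that order. The median was 0.28 over type I members, 0.02 over gamma members and 0.01 over all genes. Without replicate 2 it was -0.00 over type I and -0.02 over gamma members.

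The lists of the wider pathway were read in that comparison too, in which 4.29% of all genes were called higher and 4.08% lower. Of 46 other interferon-stimulated genes, 2 rose, Parp10 by 0.56 (adjusted p = 0.0245) and Ifit3b, a near copy of Ifit3, by 0.96 (adjusted p = 0.0304). On the class I presentation list of 11, Tap2 rose by 0.30 (adjusted p = 0.0324). Of 13 sensing genes, Tlr9, an endosomal receptor for DNA, fell by 0.84 (adjusted p = 0.0262). Of 6 feedback genes 1 fell, and 0 of 10 receptor and kinase genes were called. Replicate 2 of 100 µg stood at 2.35 times its group's median for Ifit3b. Whether these calls hold without that replicate is not given here, though leaving it out cut the count over all genes. Markers of other cells moved beside these genes: 4 of 7 alveolar macrophage markers were higher, and their sum ran from 2871 to 5140 CPM in saline and 1635 to 9001 CPM after 100 µg. Of 5 endothelial markers 3 were higher, and their sum ran from 1795 to 2243 CPM in saline and 1911 to 2531 CPM after 100 µg. An added list of 8 red blood cell genes, chosen after its values were seen, summed to 372 to 1127 CPM in saline and 575 to 4403 CPM after 100 µg. Their part in the member results was not tested.

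Whether HDM acted differently at 12 than at 2 weeks was tested as the difference of both 100 µg effects. Irf1 was called higher, 1 of 39 against 4.74% of all genes, with a difference of 0.58 (SE 0.15, adjusted p = 0.0172), its effect being -0.14 at 2 weeks and 0.45 at 12 weeks. Stat2 was called lower, 1 of 39 against 3.52% (8.26% in either direction), with a difference of -0.57 (SE 0.15, adjusted p = 0.0185). At 12 weeks Stat2 measured 86.5, 85.7, 77.6, 73.8 and 81.1 CPM in saline and 68.2, 93.4, 61.0, 69.1 and 62.7 CPM after 100 µg, so that 4 of 5 treated mice lay below every saline mouse and replicate 2 above them all. Both differences were called in every alternative setting and with each of the 25 libraries left out in turn. Without replicate 2 of 100 µg at 12 weeks, Mx1, Oas2 and Zbp1 were also called lower, and without replicate 1 Ifit2 and Ifit3 were also called higher.

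**Figure D4:**
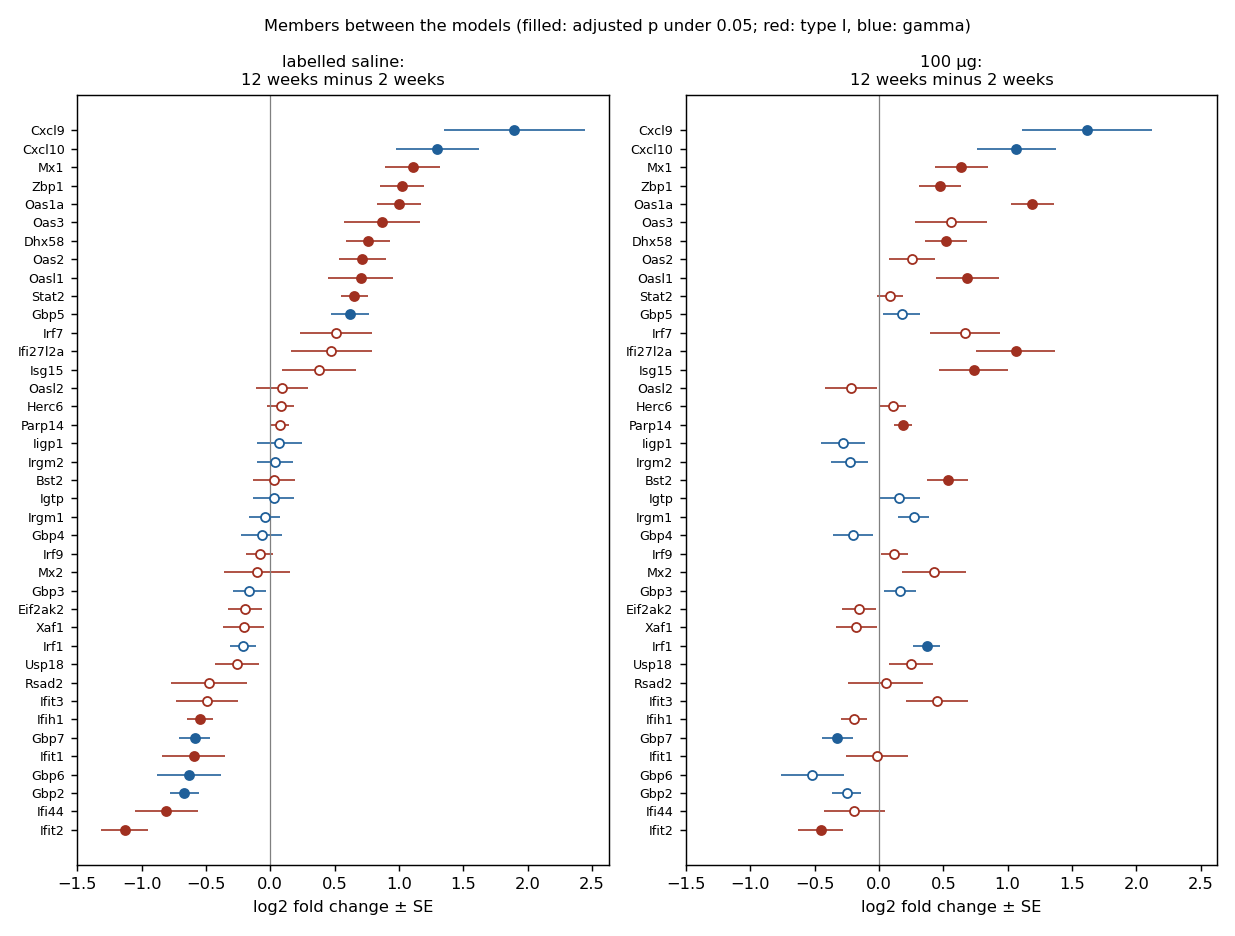
Log2 fold change with its standard error for each member between times, in saline-labelled groups (left) and in 100 µg groups (right), with filled points called at an adjusted p under 0.05. Type I members are red and gamma members blue. Oas1a, Mx1, Zbp1, Cxcl9 and Cxcl10 lie above 0 in both panels, and Ifit2 and Gbp7 below.

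The largest differences among the members were between the 12-week and 2-week groups. In the libraries labelled saline, 18 of 39 members were called, against 54.1% of all genes, a count that shows no excess over the background. Of these, 11 were higher (28.5% of all genes) and 7 lower (25.6%). Time in the study, age and whatever sets the 12-week saline libraries apart cannot be told apart here.

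Type I members moved in both directions in this comparison. The oligoadenylate synthase gene Oas1a measured 3.84, 5.33, 5.50, 3.94 and 4.09 CPM at 2 weeks and 9.30, 6.66, 10.3, 9.07 and 10.7 CPM at 12 weeks, a log2 change of 1.00 (SE 0.17, adjusted p = 3.08e-05). Every 12-week mouse was above every 2-week mouse. Mx1 was 4.202 to 5.97 CPM at 2 weeks and 9.37 to 12.7 CPM at 12 weeks (log2 fold change 1.11, SE 0.21, adjusted p = 0.000122), and Zbp1 went from 5.98 to 11.8 CPM up to 14.0 to 17.5 CPM (1.02, SE 0.17, adjusted p = 2.27e-05). Oas2 rose by 0.72 (adjusted p = 0.00184), Oas3 by 0.87 (adjusted p = 0.0152) and Oasl1, which restrains Irf7 production in mice, by 0.70 (adjusted p = 0.0227). Stat2 rose by 0.65 (SE 0.10, adjusted p = 1.08e-05) and Dhx58 by 0.76 (adjusted p = 0.000592).

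Members of the Ifit family went the other way. Ifit2 measured 72.9, 59.3, 64.7, 81.8 and 50.4 CPM at 2 weeks and 35.3, 25.9, 35.7, 26.2 and 26.1 CPM at 12 weeks, with no overlap (log2 fold change -1.13, SE 0.18, adjusted p = 1.30e-05). Its neighbour Ifit1 measured 31.3, 35.5, 27.9, 43.5 and 34.9 CPM at 2 weeks and 22.4, 27.7, 24.4, 20.2 and 18.7 CPM at 12 weeks (-0.60, SE 0.24, adjusted p = 0.0409). Ifit3, with the ISRE matches printed above, had a log2 fold change of -0.49 (adjusted p = 0.0895) and was not called. Ifi44 fell by 0.81 (adjusted p = 0.00700), and Ifih1, a sensor of double-stranded RNA, fell by 0.55 (SE 0.10, adjusted p = 6.37e-05). Isg15 at 0.38 (adjusted p = 0.268), Irf7 at 0.51 (adjusted p = 0.124), Rsad2 at -0.48 (adjusted p = 0.18) and Usp18 at -0.26 (adjusted p = 0.21) did not pass the test.

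Gamma members split in a similar way. The chemokine gene Cxcl9 measured 0.901, 1.05, 0.692, 4.15 and 1.00 CPM at 2 weeks and 5.96, 5.77, 3.26, 3.99 and 3.24 CPM at 12 weeks, a log2 change of 1.90 (SE 0.55, adjusted p = 0.00511). The 2-week mouse that overlapped was replicate 4, the shallow library. Cxcl10 measured 0.901, 1.19, 1.04, 2.40 and 0.956 CPM at 2 weeks and 2.79, 2.13, 2.60, 3.30 and 3.33 CPM at 12 weeks (1.30, SE 0.33, adjusted p = 0.00160), with the same overlapping mouse. Gbp5, whose product promotes inflammasome activity, rose by 0.62 (SE 0.15, adjusted p = 0.000968), from 13.7 to 19.5 CPM up to 23.2 to 27.2 CPM. Other guanylate-binding genes fell, with -0.67 for Gbp2 (SE 0.11, adjusted p = 2.20e-05), -0.59 for Gbp7 (SE 0.12, adjusted p = 0.000239) and -0.63 for Gbp6 (SE 0.25, adjusted p = 0.0338). Gbp2 measured 115, 139, 118, 141 and 105 CPM at 2 weeks and 82.4, 68.6, 92.7, 75.8 and 68.6 CPM at 12 weeks, and these did not overlap. Irf1 at -0.21 (adjusted p = 0.0842) and Igtp at 0.03 (adjusted p = 0.908) were not called.

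Groups did not overlap for 8 members that were higher at 12 weeks, against 17.8% of all genes, and for 5 that were lower, against 15.3%. The median log2 fold change was 0.08 over type I members, -0.04 over gamma members and 0.04 over all genes, so the medians hide members that moved by up to 1.90 up and 1.13 down. Of the 18 calls, 15 were made with any 1 of the 25 libraries left out. The calls of Ifit1 (adjusted p 0.0568 to 0.0885 where lost), Oasl1 (0.0509 to 0.0639) and Gbp6 (0.0522 to 0.109) were each lost without some of the mice. They were replicates 2, 4 and 5 at 2 weeks and 1, 4 and 5 at 12 weeks for Ifit1, replicates 3 and 5 at 2 weeks and 4 and 5 at 12 weeks for Oasl1, and replicate 4 at 2 weeks and 2 to 5 at 12 weeks for Gbp6. Without replicate 2 of 100 µg at 12 weeks, which enters through the shared estimate of spread, 12 members were higher and 10 lower. Over all genes, leaving out 1 library at a time gave 9646 to 10784 calls in either direction, against 10634 with all libraries.

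Lists of the wider pathway were read beside the members, with 28.5% of all genes called higher and 25.6% lower in this comparison. In either direction 54.1% of all genes were called. Of 10 receptor and kinase genes, Ifnar1 at 0.32 (adjusted p = 0.000807), Ifngr2 at 0.92 (adjusted p = 3.65e-07) and Tyk2 at 0.85 (adjusted p = 5.42e-06) were higher, and Ifngr1 at -0.33 (adjusted p = 0.000829) was lower. Of 6 feedback genes, 3 were higher and 1 lower, with Socs1, which blocks Jak kinases, at 1.84. Of 13 sensing genes 9 were higher, led by Irf5 at 1.70 (adjusted p = 1.15e-08), Irf8 at 1.14 (adjusted p = 1.89e-08), Tlr9 at 2.08 (adjusted p = 7.11e-08) and Tmem173, which encodes the DNA-response adaptor STING, at 1.64 (adjusted p = 8.67e-08). On the class I presentation list 8 of 11 were higher, among them Nlrc5 at 1.15 (adjusted p = 1.49e-07) and Tap1 at 1.29 (adjusted p = 1.76e-07). The 8 include the class II regulator Ciita, at 1.94 (adjusted p = 4.83e-10). The other 46 interferon-stimulated genes split 12 higher to 13 lower, with Lgals3bp at 1.53 (adjusted p = 3.13e-09) and Ifi30 at 1.59 (adjusted p = 3.57e-09) against Ifit1bl2 at -2.23 (adjusted p = 6.75e-08) and Slfn5 at -0.64 (adjusted p = 7.21e-07).

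Cell markers moved beside these genes. Summed T-cell markers ran from 58.8 to 85.3 CPM in 2-week saline and 116 to 154 CPM in 12-week saline, with 7 of 10 higher. Summed natural killer markers ran from 55.3 to 75.0 CPM and from 27.3 to 72.3 CPM, with 3 of 9 lower, and plasmacytoid dendritic markers from 41.8 to 65.3 CPM and from 87.7 to 95.0 CPM, with 3 of 7 higher and 1 lower. Endothelial markers ran from 2711 to 3419 CPM and from 1795 to 2243 CPM, with 5 of 5 lower. Of these lists, 0 markers were at 0 in any library. Of 13 circadian clock genes, 7 were higher and 3 lower, against 54.1% of all genes called in either direction. The part of the cell markers and clock genes in the member results was not tested.

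The 100 µg groups were compared across times next. Of 39 members 12 were higher, against 22.1% of all genes, and 2 lower, against 16.4%, and 38.5% of all genes were called in either direction. Duration of dosing and age differ together between these groups. Oas1a measured 4.71, 6.04, 4.82, 4.10 and 4.49 CPM at 2 weeks and 9.54, 16.5, 9.98, 10.4 and 8.70 CPM at 12 weeks, without overlap (log2 fold change 1.19, SE 0.17, adjusted p = 1.10e-05). Irf1 measured 116, 117, 118, 102 and 115 CPM at 2 weeks against the 122 to 169.9 CPM given above, also without overlap (0.37, SE 0.10, adjusted p = 0.00653). Dhx58 was the remaining gene without overlap, at 0.52 (SE 0.17, adjusted p = 0.0154), and 14.4% of all genes were separated upwards in this way. Groups separated downwards for 0 members, against 9.2% of all genes. Cxcl9 at 1.61 (SE 0.50, adjusted p = 0.0139), Cxcl10 at 1.07 (SE 0.31, adjusted p = 0.0083), Ifi27l2a at 1.06 (SE 0.31, adjusted p = 0.00847), Bst2 at 0.53 (adjusted p = 0.0100), Mx1 at 0.64 (adjusted p = 0.0171) and Zbp1 at 0.47 (adjusted p = 0.0249) were higher. Oasl1 at 0.69, Isg15 at 0.73 and Parp14 at 0.18 made up the 12.

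The members that were lower after 100 µg at 12 weeks were Ifit2 at -0.45 (SE 0.18, adjusted p = 0.0453) and Gbp7 at -0.33 (SE 0.12, adjusted p = 0.0342). Without replicate 2 of 100 µg at 12 weeks the balance changed to 3 higher, Oas1a at 0.97 (adjusted p = 2.00e-05), Irf1 at 0.28 (adjusted p = 0.0347) and Cxcl9, and 10 lower. Those 10 were Ifit1, Ifit2, Oasl2, Rsad2, Ifi44, Ifih1, Xaf1, Gbp2, Gbp6 and Gbp7. Rsad2 turned from 0.05 to -0.63 (adjusted p = 0.00717). Over all genes, leaving out 1 library at a time gave 6175 to 8498 calls in either direction, against 7568 with all libraries. The count of lower members was 0 without replicate 3 or 5 of 100 µg at 2 weeks or replicate 5 at 12 weeks, and 5 without replicate 2 at 2 weeks. Leaving out replicate 5 at 2 weeks gave 7 higher. Oas1a and Irf1 were the members called with each of the 25 libraries left out in turn. With upper-quartile scaling the split over the members was 9 higher to 4 lower, and over all genes the share of calls that were higher was 45.9%, against 57.4% with the main scaling. For 100 µg against saline at 12 weeks the same scaling moved that share from 51.3% to 34.5%, and for the difference of effects from 57.4% to 44.6%. The median log2 fold change between times was 0.25 over type I members and 0.16 over gamma members, and -0.01 and -0.05 without replicate 2.

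Markers of other cells differed between the same groups. Of T-cell markers 7 of 10 were higher, with sums of 73.8 to 96.7 CPM at 2 weeks and 114 to 148 CPM at 12 weeks. Conventional dendritic markers, 6 of 7 higher, summed to 82.5 to 94.3 CPM and 140.9 to 176 CPM. Monocyte markers had 6 of 8 higher and 1 lower, plasma cell markers 5 of 7 higher and eosinophil markers 4 of 5 higher. Endothelial markers had 4 of 5 lower, with sums of 2725 to 3146 CPM and 1911 to 2531 CPM. Of 13 circadian clock genes, 4 were higher and 4 lower, against 38.5% of all genes called in either direction. The part of the cell markers and clock genes in the member results was not tested.

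**Figure D5:**
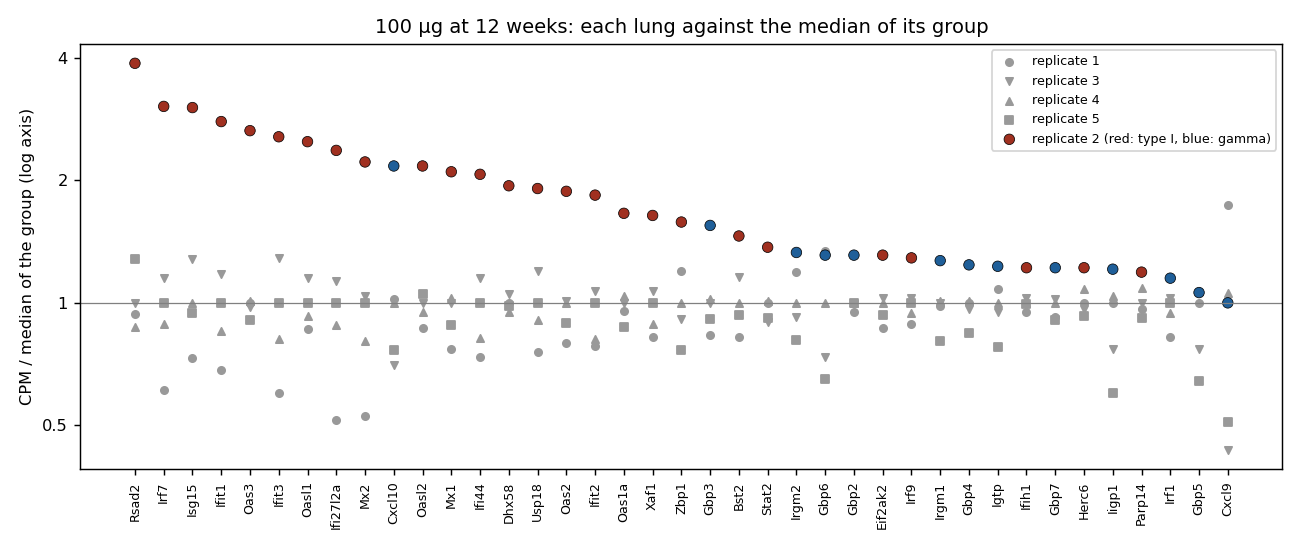
Each 12-week 100 µg library's CPM divided by its group's median for each of the 39 members, on a log axis. Replicate 2 is the highest library for all 26 type I members, at up to 3.88 times the median for Rsad2, and for 10 of 13 gamma members.

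Replicate 2 of 100 µg at 12 weeks is a single mouse and is described without a test. It was singled out by the highest type I score of all libraries. Its counts of type I members restate that score and are no separate support for it. It had the highest CPM of its group in 26 of 26 type I members and 10 of 13 gamma members, against 19.2% of all genes. It was at least 1.5 times the group median in 19 of the 26 type I members and 2 of the 13 gamma members, against 3.13% of all genes. The ratio to the group median was 3.88 for Rsad2, 3.04 for Irf7, 3.02 for Isg15, 2.79 for Ifit1, 2.65 for Oas3 and 2.56 for Ifit3. Its median ratio was 1.93 over type I members, 1.24 over gamma members and 1 over all genes. It was highest in 3 of the 11 genes on the class I presentation list. Among the 40 genes with its highest ratios, of 15572 with a group median of at least 1 CPM, 9 were type I members and 0 gamma members.

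Other values stood apart in the same library. The added red blood cell list summed to 4403 CPM in it, against a group median of 1188 CPM, and summed alveolar macrophage markers were 1635 CPM, the lowest of the group, whose highest was 9001 CPM. Plasmacytoid dendritic markers summed to 88.9 CPM, within the group's 60.7 to 90.4 CPM, and T-cell markers to 118 CPM, within 114 to 148 CPM. Interferon genes summed to 0.165 CPM, with 19 of 20 at 0. It held 40.7 M counts, of which 3.26% were mitochondrial. The part of the red cell and macrophage shifts in its type I levels was not tested. At the other end of the group, replicate 1 had the lowest type I score. Its CPM was the lowest in 18 of 26 type I members, which restates that score, and in 3 of 13 gamma members, against 27.7% of all genes. It also had the highest CPM in 26.5% of all genes.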

How the data were processed

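Lung lobes gave total RNA for TruSeq Stranded Total RNA libraries, per the labels' protocols. Per the submitters' processing notes, STAR 2.5.3a and GRCm38 were used. How reads were counted, with which strand option and annotation, is not given in the sources used here. The authors deposited raw, whole-number counts per Ensembl gene, so intronic or shared reads may be included. Low counts were removed with filterByExpr, and scaling used edgeR's TMM factors. All 25 libraries entered 1 quasi-likelihood fit in edgeR 4.0.16 under R 4.3.3, with Benjamini-Hochberg adjustment over 19654 genes and a threshold of 0.05. CPM uses the same scaling, and scores use a prior count of 2. Over 7 comparisons, p-values measure only the spread between these samples, since batches are not labelled. Counting error limits members at few CPM, most of all in the 7.23 M library. The members, classes and lists were chosen with earlier results of these data known. Named genes were a panel of 15 members, up to 8 called members per direction, up to 4 called genes from each other list, members whose groups separated and extremes. DESeq2 1.42.0, limma 3.58.1, other scalings, filters, a replicate block and left-out libraries were alternatives. RefSeq windows and GENCODE positions are both on GRCm38.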

Additional observations from a re-analysis of the deposited data

Results flagged for a closer look

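Within each group of 5, a library was marked where its gap to the nearest other mouse was over 0.71 of the group's range, Dixon's 95% limit. Of 205 sets of 5 values, from the 39 members and both scores in each group, 30 were marked. Chance alone marks about 5% of independent sets. These sets are not independent, since the same 5 mice give every set of a group and the scores are built from the members. The 30 marks therefore do not measure an excess over that share. Neither score was marked in any group.

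Replicate 2 of 100 µg at 12 weeks accounted for 17 of them, all as the highest library. Its CPM was 13.3 for Isg15, 64.5 for Ifit1, 67.9 for Ifit2, 70.2 for Irf7, 19.1 for Mx1, 16.5 for Oas1a, 17.7 for Oas2, 14.9 for Oas3 and 8.57 for Oasl1. It was 101.9 for Oasl2, 48.7 for Rsad2, 93.4 for Stat2, 89.0 for Ifih1, 22.1 for Dhx58, 119.7 for Gbp2, 89.4 for Gbp3 and 5.13 for Cxcl10. Of these, 14 are type I and 3 gamma members.

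The shallow 2-week saline library, replicate 4, was marked as the highest for Isg15 at 5.03 CPM, Gbp6 at 19.7 CPM, Cxcl9 at 4.15 CPM and Cxcl10 at 2.40 CPM. In the same group replicate 2 was marked for Oasl1 at 3.12 CPM, and replicate 5 as the lowest for Iigp1 at 76.1 CPM. After 10 µg, replicate 1 was marked for Xaf1 at 24.7 CPM and Cxcl9 at 4.51 CPM, replicate 2 for Oas2 at 9.26 CPM, and replicate 4 for Stat2 at 68.0 CPM and Gbp7 at 150.1 CPM. After 100 µg at 2 weeks, replicate 4 was the lowest for Irf1 at 102 CPM, and in 12-week saline replicate 3 was the highest for Irgm2 at 68.3 CPM.

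The 100 µg effect differed between 12 and 2 weeks, by the test of the difference itself in edgeR, for Irf1 by 0.58 and for Stat2 by -0.57 on the log2 scale. Both rest on the 12-week saline label, which other genes go against.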

How the results depend on the processing

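After 10 µg, 0 members were called with each library left out in turn. Leaving out libraries gave ranges of members called higher and lower of 0 to 3 and 0 to 1 for 100 µg against saline at 2 weeks, 0 to 10 and 0 to 0 at 12 weeks, 10 to 12 and 5 to 10 for saline at 12 against 2 weeks, 3 to 12 and 0 to 10 for 100 µg at 12 against 2 weeks, and 1 to 3 and 1 to 4 for the difference of effects. For 100 µg against saline at 2 weeks, 1 member was called higher with no filter or with limma-voom, and 0 with only these groups in the fit. At 12 weeks, DESeq2's own test called 6 higher and a fit of only these groups 0. For 100 µg at 12 against 2 weeks, upper-quartile scaling called 4 lower, only these groups gave 6 higher and 1 lower, and the replicate block 1 lower. Equal replicate numbers showed no general shared signal: 4 of 50 same-number pairs had a correlation of deviations over 0.1. The median was 0.000308 and the highest 0.366, against a median of -0.00735 for different numbers. The labels do not say whether equal numbers share a cage or day, and these correlations cannot exclude it. The block changed no other count of members by over 1.5 times. Over all genes it gave 521 lower calls in place of 788 for 100 µg against saline at 2 weeks, and 3 higher and 4 lower in place of 6 and 2 after 10 µg. Without replicate 2 of 100 µg at 12 weeks and the shallow saline library together, chosen after seeing the data, 5 members were higher for 100 µg at 2 weeks, 1 higher and 1 lower at 12 weeks, 3 higher and 13 lower for 100 µg across times, 5 lower in the difference of effects, and Rsad2 across times was -0.65. Leaving out 1 library at a time, it ran from -0.63, without replicate 2, to 0.22. Without both libraries, calls over all genes were 432 lower in place of 788 for 100 µg against saline at 2 weeks. At 12 weeks they were 286 higher and 192 lower in place of 843 and 801. Over all genes, 10 µg against saline called 8 genes, 202 with DESeq2, 3 with upper-quartile scaling, 2 with DESeq2 size factors or no filter, 0 with limma-voom or only these groups, and 0 to 57 with 1 library left out. 100 µg against saline at 2 weeks called 1597 genes, 723 with no filter and 244 with only these groups, and at 12 weeks 1644, 3072 with limma-voom, 2931 with DESeq2 and 0 with only these groups. The difference of effects called 1624, 919 with no filter and 978 with only its groups. Leaving out 1 library gave 611 to 2085 at 2 weeks, 0 to 3500 at 12 weeks and 777 to 2602 for the difference. The causes were not tested. By direction, 100 µg against saline at 2 weeks called 809 genes higher, 1235 with DESeq2. At 12 weeks it called 801 lower, 1277 with upper-quartile scaling and 522 with no filter, and the difference of effects 692 lower, 1204 with DESeq2. Without replicate 2 of 100 µg at 12 weeks, the type I score difference fell from 0.23 to 0.01 against saline at 12 weeks and from 0.21 to -0.03 against 100 µg at 2 weeks, and the gamma difference from 0.06 to -0.05 and from 0.14 to 0.01. These shifts are smaller than the group's SD, to which that library adds. Another prior count, and a gamma class without Cxcl10 and Irf1, moved no score difference by more than the spread between mice.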
